A study of Mus musculus with 6 samples.

Results

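Bone morphogenetic protein (BMP) ligands and genes that respond to them were examined in embryonic eye tissue of mice unable to make retinoic acid (RA). The 10 genes were chosen by symbol. They comprised the ligands *Bmp2*, *Bmp4*, *Bmp5* and *Bmp7*, the response genes *Id1*, *Id2*, *Id3* and *Id4*, and the inhibitory Smads *Smad6* and *Smad7*. All 10 were found among the 26437 genes measured, and all 10 passed the filter on low values.

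RNA-seq was performed at embryonic day 10 on 3 libraries from wild-type embryos and 3 from *Rdh10* KO embryos, which were homozygous for a null allele of *Rdh10* in every cell and came from matings of heterozygous parents. Each library pooled tissue of 3 embryos, 9 per group, on a mixed Black Swiss and C57BL/6 background, and the labels name no treatment for either group. The dissected frontal part of the head held the optic vesicles, the frontonasal region and some adjoining forebrain. In such mixed tissue, fewer cells of a type and less RNA per cell cannot be told apart.

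BMP ligands are secreted dimers that bind pairs of type I and type II receptor kinases, and the activated type I receptor phosphorylates Smad1, Smad5 and Smad9, which enter the nucleus with Smad4. The *Id* genes are classic direct targets of this pathway and encode proteins that dimerize with basic helix-loop-helix transcription factors and keep them from binding DNA. *Smad6* and *Smad7* are also targets, and their products damp the signal as feedback inhibitors. In the eye, *Bmp4* and *Bmp7* are known for their roles in lens induction and in patterning of the optic vesicle and cup.

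The libraries held between 16392777 and 27101025 reads on genes. Values are given as normalized counts, that is, reads divided by a size factor for each library. A limit of 3 reads stood at 2.15 to 3.53 normalized counts, and the members lay well above it, with at least 47 reads in every library. *Rdh10*, the retinol dehydrogenase gene that was knocked out, averaged 374 normalized counts in wild-type and 169 in the *Rdh10* KO. A gene was called lower or higher where the adjusted p of the limma fit across all 22921 genes tested was under 0.05. All 8 markers of optic vesicle and retina and all 7 of forebrain were detected.

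Of the 10 genes, *Id4* fell and *Smad7* rose in the *Rdh10* KO, and the other 8 did not pass the limma test. Among all genes tested, 9.12% fell and 10.3% rose, so 1 of 10 in each direction was near the share among genes at large. Of all calls 53.0% were higher, or 39.7% with a trend on GC content and exon length removed, a setting in which *Bmp2*, *Id1*, *Id2* and *Smad7* were called higher. With a further cut-off of 0.85 on the log2 fold change, *Id4* was the single member called lower, against 0.886% of all genes, and no member reached the cut-off upward, the highest log2 fold change being 0.62, against 2.41%. The 3 values of one group lay wholly above those of the other for 5 of 10 members, with 4 of these higher in the *Rdh10* KO. Among all 22921 genes tested, 34.6% were without overlap in either direction, and 4034 were without overlap and higher in the *Rdh10* KO. All 10 members averaged over 10 normalized counts. Of the 15272 genes at that level, 7052 were without overlap, 3550 of them higher in the *Rdh10* KO, while 2048 fell and 2293 rose. The median log2 fold change of the members was 0.16, beside 0.0036 over all genes tested.

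**Figure D1:**
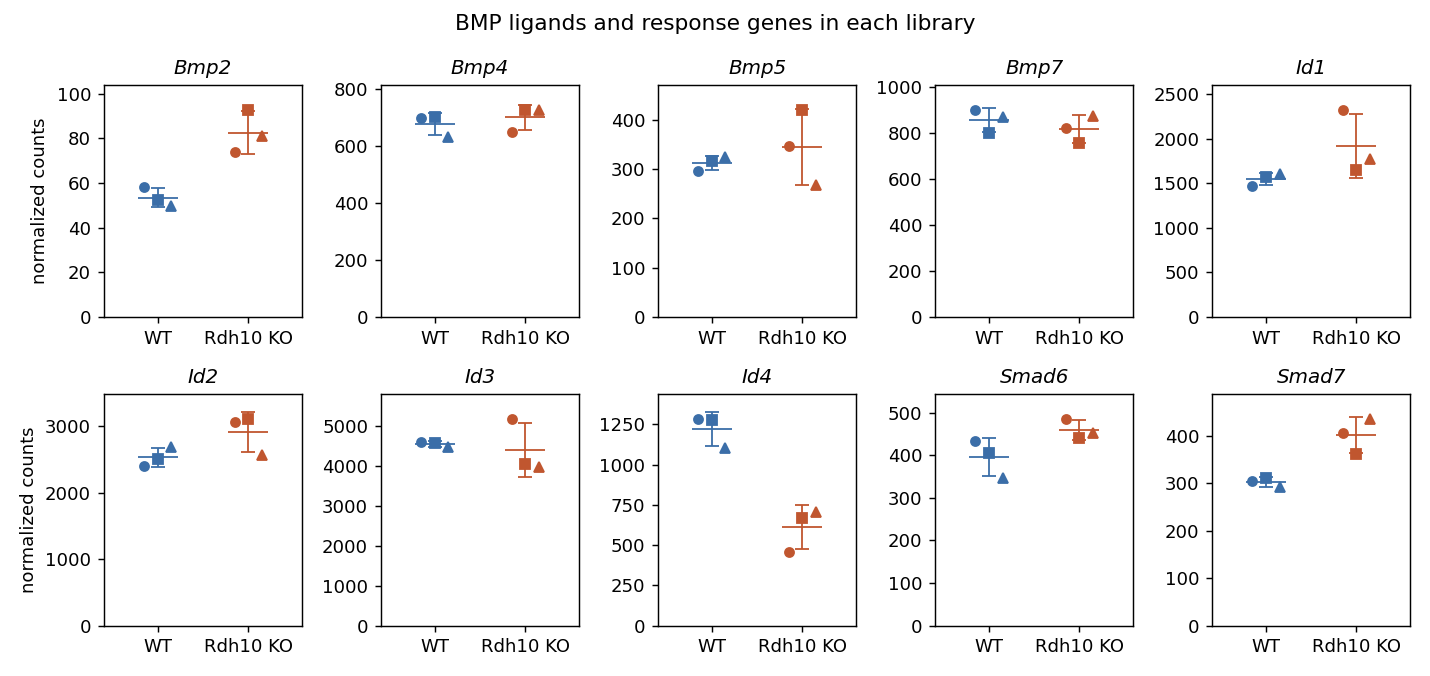
Normalized counts (y axes, linear and starting at 0) of the 10 genes in the 3 wild-type (WT) and 3 *Rdh10* KO libraries, with circles, squares and triangles for replicates 1, 2 and 3, lines for the mean and bars for the SD. *Id4* is the panel in which all *Rdh10* KO points lie below all wild-type points, while *Bmp2*, *Id1*, *Smad6* and *Smad7* show the opposite arrangement.

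The ligands were examined first. *Bmp4*, which is required for lens induction, measured 698, 702 and 634 normalized counts in wild-type and 650.2, 728 and 728 in the *Rdh10* KO. The groups overlapped, and the means of 678 ± 38.3 and 702 ± 44.9 (SD, n = 3 each) differed by less than the spread between replicates. The log2 fold change was 0.05 ± 0.09 (SE), with a 95% interval from −0.14 to 0.24 and a limma adjusted p of 0.760.

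*Bmp7*, another ligand needed for lens and eye formation, measured 900.3, 799 and 868 normalized counts in wild-type and 823, 755 and 874 in the *Rdh10* KO. These values were interleaved, and the log2 fold change of −0.07 ± 0.09 (SE) had a 95% interval from −0.26 to 0.12 (limma adjusted p = 0.667). *Bmp5*, a close relative of *Bmp7*, measured 296, 316 and 324 normalized counts in wild-type and 347, 420.3 and 267 in the *Rdh10* KO. The *Rdh10* KO libraries thus lay on both sides of the wild-type libraries, and the log2 fold change of 0.12 ± 0.15 (SE) had a 95% interval from −0.19 to 0.43 (limma adjusted p = 0.636). Its direction turned to −0.03 when *Rdh10* KO replicate 2 was left out.

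*Bmp2* was the least abundant member, with 47 to 57 reads in wild-type and 69 to 103 in the *Rdh10* KO. It measured 58.3, 52.3 and 49.8 normalized counts in wild-type and 73.8, 92.8 and 81.2 in the *Rdh10* KO. Every *Rdh10* KO library lay above every wild-type library, and the *Rdh10* KO mean of 82.6 ± 9.61 stood at 154% of the wild-type mean of 53.5 ± 4.36 (SD, n = 3 each). The log2 fold change of 0.62 ± 0.21 (SE), the highest of the 10 genes, had a 95% interval from 0.17 to 1.07, but its limma adjusted p of 0.0512 missed the threshold. An exact two-sided permutation test of 3 against 3 gave p = 0.1, the smallest it allows. The edgeR quasi-likelihood test on the recovered reads gave an adjusted p of 0.0396 and DESeq2 gave 0.0697.

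Markers of placenta, decidua and yolk sac, tissues that lie next to the embryo, were also higher in the *Rdh10* KO libraries. Their summed level ran from 5.12 to 7.80 normalized counts in wild-type and from 57.7 to 79.0 in the *Rdh10* KO, and 2 of the 5 measured members (*Prl8a2* and *Ascl2*) rose, with *Prl8a2* at 0 in all wild-type libraries. *Apoa1* was the most abundant of the list per length in wild-type. The summed heart markers did not overlap between the groups either, at 90.3 to 127 and 153 to 305 normalized counts, with *Actc1* higher and the other 5 tested not passing. *Actc1* carried that sum, and the list had a median log2 fold change of −0.31. *Myl7*, the most abundant per length in wild-type, went the other way without overlap, with an *Rdh10* KO mean at 42.2% of wild-type. *Tnnt2* stood at 38.1% of its wild-type mean, but with overlap and 1 to 10 reads per library. *Myh6*, at 2 to 16 reads per library, and *Myh7* were higher without overlap, at 217% and 153% of wild-type, and did not pass. The part of these tissues in the *Bmp2* values was not tested.

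Ratios between ligands within a library were compared next. *Bmp2* gained on *Bmp4* by 0.57, on *Bmp5* by 0.50 and on *Bmp7* by 0.69 on the log2 scale, with no overlap between the groups in any of these 3 ratios. They share *Bmp2* and so are not separate from its own higher values. The 3 ratios among *Bmp4*, *Bmp5* and *Bmp7* overlapped between the groups. Within ligands, *Id* genes and inhibitory Smads 13 ratios were compared in all, 7 of them without overlap, and the lowest Benjamini-Hochberg p from exact permutation tests was 0.186.

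The *Id* genes were examined as transcriptional targets of the pathway. *Id4* measured 1286, 1279.7 and 1101 normalized counts in wild-type and 455, 668 and 708 in the *Rdh10* KO. The highest *Rdh10* KO library thus lay far below the lowest wild-type library. The *Rdh10* KO mean of 610.5 ± 136 was 49.9% of the wild-type mean of 1222 ± 105 (SD, n = 3 each), with a log2 fold change of −1.02 ± 0.14 (SE), a 95% interval from −1.32 to −0.73 and a limma adjusted p of 0.00021. The exact two-sided permutation test reached its smallest possible p of 0.1.

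*Rdh10* KO replicate 1 had the lowest *Id4* value. The same library had the lowest summed level of the 8 optic vesicle and retina markers, at 3146 normalized counts against 4653 to 4936 in the other 5 libraries, and of the 7 forebrain markers, at 2109 against 2722 to 3550.1. Without that library, the log2 fold change of *Id4* was −0.83 and still passed the limma test. In wild-type tissue the forebrain markers summed to 2722 to 3138, within the range of the *Rdh10* KO libraries. Of the forebrain markers *Dlx2* rose and the other 6 did not pass the limma test, *Emx2* being the most abundant per length. Of the optic markers *Lhx2*, the most abundant, fell, *Rax* and *Six3* rose and the other 5 did not pass. The 6 blood markers, *Hbb-bh1* the most abundant, summed to 50472 normalized counts in that library and to 99484 to 154793 in the other 5, and did not pass. The 7 surface ectoderm markers, *Krt18* the most abundant, overlapped between the groups at 5867 to 6404 and 5865 to 6910 normalized counts, with *Cdh1* higher.

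*Id4* shares its locus on chromosome 13 (mm10, chr13:48261228-48266026, + strand) with 2 annotated noncoding genes on the other strand. The one in the table ranged from 0 to 7.16 normalized counts and the other was not analysed here. Whether reads were counted by strand is not given in the sources used here.

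*Id1* measured 1473, 1569 and 1612 normalized counts in wild-type and 2328, 1649 and 1779 in the *Rdh10* KO. The groups did not overlap, but *Rdh10* KO replicate 1 stood well above the other two libraries of its group. The log2 fold change was 0.29 ± 0.11 (SE) with a 95% interval from 0.06 to 0.52 and a limma adjusted p of 0.0748, and without that library it was 0.14.

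*Id2* measured 2405, 2499 and 2692 normalized counts in wild-type and 3061, 3115 and 2563 in the *Rdh10* KO. *Rdh10* KO replicate 3 fell inside the wild-type range, and the log2 fold change of 0.20 ± 0.08 (SE) had a limma adjusted p of 0.121. *Id3*, the most abundant member, measured 4619, 4594 and 4483 normalized counts in wild-type and 5198, 4063 and 3972 in the *Rdh10* KO. Here 1 *Rdh10* KO library lay above and 2 lay below all wild-type libraries, and the log2 fold change was −0.06 ± 0.09 (SE) with a 95% interval from −0.25 to 0.13 (limma adjusted p = 0.705).

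The *Id* genes therefore did not share one direction, and their proportions were compared within each library. FPKM, reads scaled to exon length and to library depth, were computed for this purpose, since levels of different genes can be compared only per length. The summed FPKM of the 4 *Id* genes was 265, 269 and 270.0 in wild-type and 324, 260.4 and 259 in the *Rdh10* KO, so the groups overlapped (exact permutation p = 1). *Id4* made up 6.46%, 6.30% and 5.42% of this sum in wild-type and 1.88%, 3.37% and 3.69% in the *Rdh10* KO, without overlap. The share of *Id1* averaged 25.5% in wild-type and 30.1% in the *Rdh10* KO, and that of *Id3* 48.6% and 44.9%, each without overlap between the groups. Relative to *Id4* in the same library, *Id1* was higher by 1.32, *Id2* by 1.22 and *Id3* by 0.96 on the log2 scale in the *Rdh10* KO than in wild-type. All 3 ratios separated the groups, but they share *Id4* and so are not separate from its own fall.

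**Figure D2:**
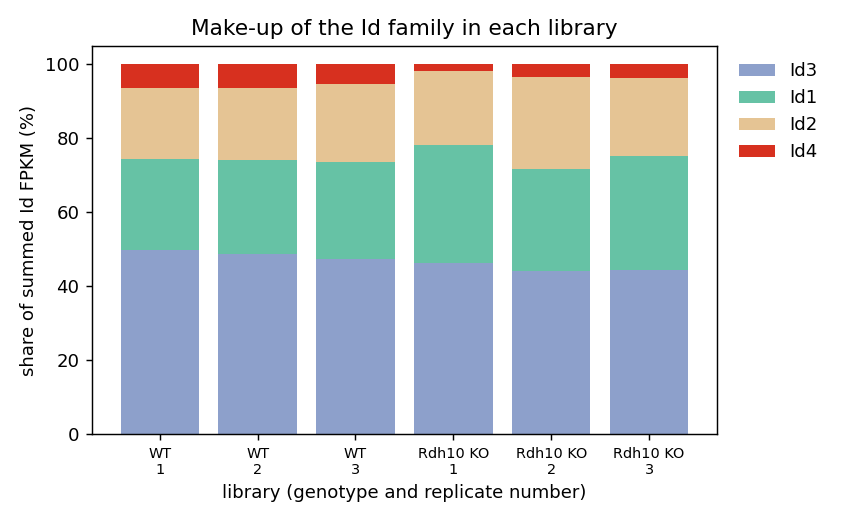
Share of each *Id* gene in the summed FPKM of the 4 *Id* genes (y axis, percent, starting at 0), stacked in 1 bar for each library (x axis). *Id4*, at the top of each bar, takes 5.42% to 6.46% in the wild-type libraries and 1.88% to 3.69% in the *Rdh10* KO libraries.

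The inhibitory Smads were the last members examined. *Smad7*, whose product blocks both the BMP and the TGF-β branch, measured 305, 312 and 292 normalized counts in wild-type and 406, 362 and 436.5 in the *Rdh10* KO. All *Rdh10* KO libraries lay above all wild-type libraries, and the means were 303 ± 9.72 and 401 ± 37.6 (SD, n = 3 each), or 132% of wild-type. The log2 fold change was 0.40 ± 0.11 (SE), with a 95% interval from 0.17 to 0.64 and a limma adjusted p of 0.0186. The call was lost when *Rdh10* KO replicate 3 or any 1 of the wild-type libraries was left out, with limma adjusted p-values of 0.0623 to 0.0724.

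*Smad6*, which acts mainly on the BMP branch, measured 434, 406 and 347 normalized counts in wild-type and 486, 439.5 and 452 in the *Rdh10* KO. The lowest *Rdh10* KO library was just above the highest wild-type library, and the log2 fold change of 0.22 ± 0.11 (SE) had a 95% interval from −0.01 to 0.45 (limma adjusted p = 0.193). The ratio of *Smad6* to *Smad7* overlapped between the groups (log2 difference −0.18, exact permutation p = 0.3).

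Endothelial cells express *Smad6*, *Smad7* and *Id1* strongly, and the summed markers of endothelium were higher in the *Rdh10* KO. The summed level of the 8 markers ran from 3590 to 4096 normalized counts in wild-type and from 4835 to 5234 in the *Rdh10* KO. *Pecam1*, *Kdr*, *Cdh5* and *Tie1* rose, while the other 4 did not pass the limma test. Of these, *Cldn5*, the most abundant per length, had a log2 fold change of −0.34 with overlap between the groups. The rest had log2 fold changes of 0.08 to 0.19. The part of endothelium in the *Smad7*, *Smad6* and *Id1* values was not tested.

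Levels of the 10 genes were next set in order by mean FPKM. In wild-type the order was *Id3* at 130.3, *Id1* at 68.3, *Id2* at 53.1, *Id4* at 16.2, *Bmp4* at 15.4, *Bmp7* at 10.9, *Smad6* at 6.31, *Bmp5* at 3.96, *Smad7* at 3.42 and *Bmp2* at 0.769 FPKM. *Id4* and *Bmp4* were the one pair of neighbours whose ranges overlapped. In the *Rdh10* KO, *Id4* at 8.14 FPKM lay below *Bmp4* at 16.0, with a ratio of 0.508 against 1.05 in wild-type. *Bmp5* at 4.39 and *Smad7* at 4.56 FPKM overlapped in the *Rdh10* KO.

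**Figure D3:**
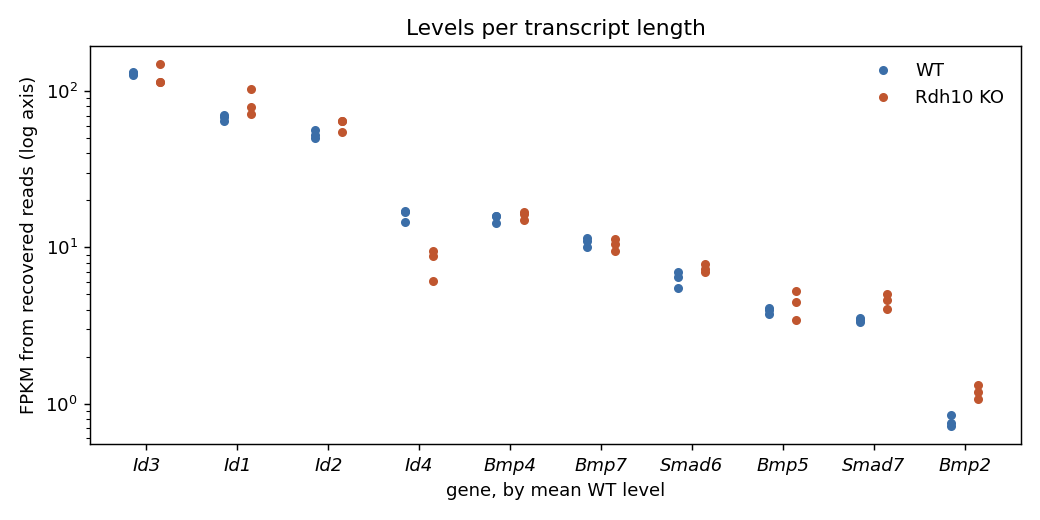
FPKM (y axis, log scale) of the 10 genes (x axis) with 1 point for each library, ordered by the wild-type mean. *Id4* and *Bmp4* lie together at 16.2 and 15.4 FPKM in wild-type and apart at 8.14 and 16.0 in the *Rdh10* KO.

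Replicates differed more in the *Rdh10* KO than in wild-type for 9 of 10 members, with *Smad6* the exception. The median SD of their log2 values was 0.083 in wild-type and 0.16 in the *Rdh10* KO. The SD was also larger in the *Rdh10* KO for 65.0% of the 15272 genes averaging over 10 normalized counts, with medians of 0.11 and 0.15. *Bmp5*, *Id4*, *Id1* and *Id3* spread most, with coefficients of variation of 22.2%, 22.2%, 18.8% and 15.5% in the *Rdh10* KO.

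The genes whose log2 values followed those of *Id4* most closely over the 6 libraries were *Dmrta2*, *Lyrm2* and *Sult4a1*, with Pearson r of 0.998, 0.997 and 0.995. Among those closest to *Bmp2* were *Agpat4* and *Vps13b*, with r of 0.996 and 0.995. Over the same 6 libraries 15272 genes were compared, and these values are given as a description.

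Other genes of the BMP pathway were then surveyed from a list of 58, of which 57 were in the table and 56 were tested. Of these, 4 fell (7.14%) and 13 rose (23.2%), beside 9.12% and 10.3% of all genes, and 39 did not pass the limma test. With the log2 cut-off of 0.85, 1 fell (*Tbx2*) and 3 rose (*Acvrl1*, *Crim1* and *Gdf7*), beside 0.886% and 2.41% of all genes tested. Of the list, 51 genes averaged over 10 normalized counts, a level at which 2048 of 15272 genes fell and 2293 rose. The median log2 fold change over the list was 0.09.

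Among 10 further ligands, *Gdf6*, which is needed for eye size and patterning, fell from 113 ± 14.0 to 73.3 ± 16.4 normalized counts (SD, n = 3 each), with a limma adjusted p of 0.0435. Its call was lost in 10 of 19 alternatives, among them DESeq2 (adjusted p = 0.0531) and the loss of any 1 library other than *Rdh10* KO replicate 1. *Gdf7*, a ligand of the dorsal neural tube, rose from 17.4 ± 2.62 to 39.5 ± 10.6, with a log2 fold change of 1.16 ± 0.34 (SE; limma adjusted p = 0.0268), a call lost in 8 of 19 alternatives. *Bmp6*, the ligand with the highest level per length outside the members, stood at 1.90 FPKM in wild-type and had a log2 fold change of 0.0044 (limma adjusted p = 0.988). *Bmp10* was at or below 3 reads in every library and *Bmp8a* in every *Rdh10* KO library.

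Of the 10 receptors and co-receptors, 6 rose, beside 10.3% of all genes tested, and the other 4 did not pass the limma test. *Acvrl1*, an endothelial type I receptor, measured 173, 177 and 186 normalized counts in wild-type and 286, 365 and 387 in the *Rdh10* KO, a log2 fold change of 0.94 ± 0.13 (SE; limma adjusted p = 0.000317). *Eng*, its co-receptor in endothelium, rose by 0.64 ± 0.10 (log2, SE). The type II receptors *Bmpr2*, *Acvr2a* and *Acvr2b* and the type I receptor *Acvr1* rose by 0.36 to 0.38 on the log2 scale. With a trend on GC content and exon length removed, *Bmpr2* dropped from 0.37 to 0.11 and lost its call (limma adjusted p = 0.333). *Acvr1* lost its call in 9 of 19 alternatives, and *Acvr2a* and *Acvr2b* in 5 each, with *Acvr2a* at 0.25 without *Rdh10* KO replicate 2. *Bmpr1a*, the receptor with the highest level at 29.2 FPKM in wild-type, did not pass (log2 fold change 0.17, limma adjusted p = 0.264). *Acvrl1* and *Eng* are themselves characteristic of endothelium, whose marker sum did not overlap between the groups.

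Of the 4 signal-transducing Smads, *Smad9* rose, measuring 64.5, 71.2 and 60.2 normalized counts in wild-type and 102, 109 and 116 in the *Rdh10* KO (log2 fold change 0.74 ± 0.18 SE, limma adjusted p = 0.0113). *Smad1* and *Smad5*, its partners in the same step, did not pass, with log2 fold changes of 0.21 and 0.05. *Smad4*, the common partner and the most abundant at 42.0 FPKM in wild-type, did not pass either (0.16, limma adjusted p = 0.119).

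Among 19 extracellular antagonists and modulators tested, 4 rose and 1 fell, beside 10.3% and 9.12% of all genes tested. *Crim1*, a transmembrane protein that binds BMPs and is known for roles in lens and eye development, measured 415, 384 and 346 normalized counts in wild-type and 688, 795 and 887 in the *Rdh10* KO, a log2 fold change of 1.05 ± 0.11 (SE; limma adjusted p = 4.0e-05). The secreted antagonists *Nog* and *Fst* rose by 0.56 and 0.61 on the log2 scale, the call of *Nog* being lost in 7 of 19 alternatives, and *Fstl1*, the most abundant of the group at 51.1 FPKM in wild-type, rose by 0.33. *Bmp1*, a protease that cleaves chordin, fell by 0.27, or by 0.46 with the GC and length trend removed, and lost its call in 8 of 19 alternatives. Of the 6 membrane and intracellular inhibitors, *Smurf2*, a ubiquitin ligase that targets Smads and receptors, rose by 0.25. With the GC and length trend removed it stood at 0.15 and lost its call (limma adjusted p = 0.0889), as it did without any 1 of the wild-type libraries. *Ski*, the most abundant of these inhibitors at 20.5 FPKM, did not pass (0.11, limma adjusted p = 0.498).

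Of the 7 other transcription factor genes known to be induced by BMPs, *Msx1* and *Tbx2* fell as *Id4* did, beside 9.12% of all genes tested. *Msx1*, a homeobox gene of the craniofacial mesenchyme, measured 2064, 2013 and 1958 normalized counts in wild-type and 1210.1, 1120.1 and 1204 in the *Rdh10* KO, 58.6% of the wild-type mean (log2 fold change −0.77 ± 0.07 SE, limma adjusted p = 1.3e-05). *Tbx2*, a T-box gene of the dorsal optic vesicle, measured 1143, 1067 and 949.7 normalized counts in wild-type and 425, 396 and 577 in the *Rdh10* KO, 44.2% of the wild-type mean (log2 fold change −1.19 ± 0.13 SE, limma adjusted p = 4.2e-05). The groups lay far apart in both. The paralogs *Msx2* and *Tbx3* did not pass, with log2 fold changes of 0.14 and −0.0066. Of the mesenchyme markers, *Alx4* fell by 0.95 on the log2 scale, while *Twist1*, the most abundant per length, and *Prrx1* had log2 fold changes of 0.11 and 0.09 and did not pass the limma test. The part of the mesenchyme in the *Msx1* values was not tested.

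**Figure D4:**
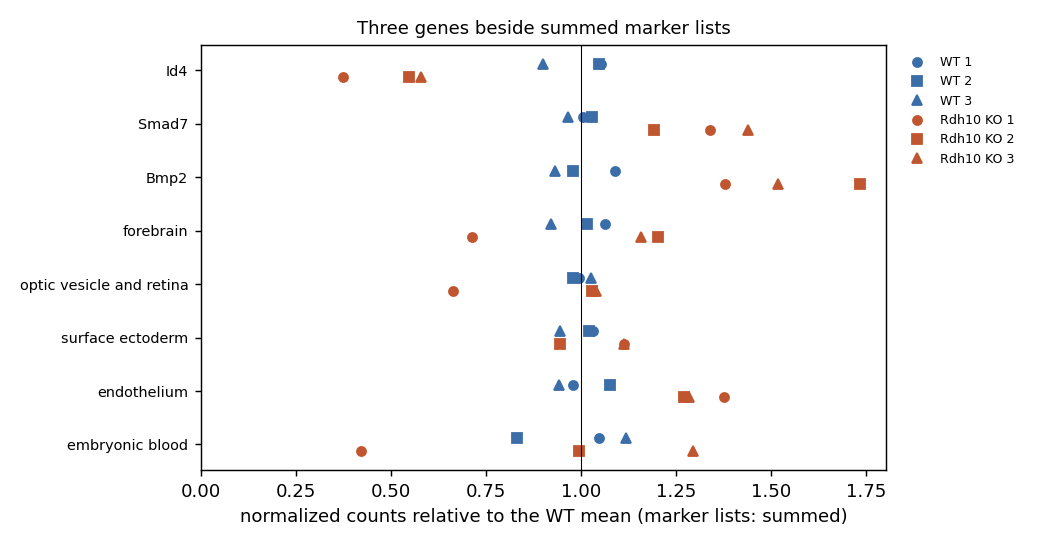
Normalized counts of *Id4*, *Smad7* and *Bmp2* and summed normalized counts of the forebrain, optic, surface ectoderm, endothelium and blood marker lists in each of the 6 libraries, divided by the wild-type mean (x axis, linear, with a line at the wild-type mean). *Rdh10* KO replicate 1 (circle) has the lowest *Id4* value and the lowest forebrain, optic and blood sums, while the endothelial sums of the groups do not overlap.

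The RefSeq promoters (GRCm38.p6) of 3 of these genes are shown because the genes changed in different directions, *Id4* and *Msx1* falling and *Smad9* rising. Each is the 250 bases before the RefSeq start site on the gene's own strand, 5′ to 3′, at chr13:48260866-48261115 (+) for *Id4*, chr5:37824586-37824835 (−) for *Msx1* and chr3:54755332-54755581 (+) for *Smad9*. Capitals mark GGCGCC, the GC-rich element known to bind BMP Smads.
Id4: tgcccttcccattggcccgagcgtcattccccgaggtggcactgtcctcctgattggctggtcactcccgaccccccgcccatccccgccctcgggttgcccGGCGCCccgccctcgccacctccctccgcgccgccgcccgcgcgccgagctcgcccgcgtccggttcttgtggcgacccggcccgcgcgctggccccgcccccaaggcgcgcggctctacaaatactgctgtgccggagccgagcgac
Msx1: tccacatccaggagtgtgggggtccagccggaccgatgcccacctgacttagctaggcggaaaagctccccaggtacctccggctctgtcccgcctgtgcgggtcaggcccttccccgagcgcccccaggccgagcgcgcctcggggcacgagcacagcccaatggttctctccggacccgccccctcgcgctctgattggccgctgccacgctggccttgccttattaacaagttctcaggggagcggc
Smad9: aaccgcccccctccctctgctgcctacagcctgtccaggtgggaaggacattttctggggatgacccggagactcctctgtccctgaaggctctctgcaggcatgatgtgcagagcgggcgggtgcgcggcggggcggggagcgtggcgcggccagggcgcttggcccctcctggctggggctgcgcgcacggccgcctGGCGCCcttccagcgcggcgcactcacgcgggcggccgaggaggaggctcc
One copy of GGCGCC was found in the *Id4* window and 1 in the *Smad9* window, while none was found in the *Msx1* window. The element reads the same on both strands and occurred in 9.59% of 32851 promoter windows of this length, but in 32.9% of the 5087 windows with at least 66% GC. The windows of *Id4*, *Msx1* and *Smad9* held 75.6%, 68.0% and 73.2% GC, against a median of 52.4%. The Smad element CAGAC and AGGTCA, a single half-site of RA receptors, were searched on both strands and not found in any of these 3 windows. They occurred in 42.2% and 14.0% of all windows and in 34.9% and 6.55% of those with at least 66% GC. Only exact copies were searched. RA response elements, which are direct repeats that can depart from their consensus, were therefore not tested for. Only GGCGCC matched in these windows, so no match overlapped another. A promoter was found in the reference table for 6 of the 10 members.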

How the data were processed

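Total RNA of embryonic day 10 eye tissue was sequenced by the authors with a directional poly(A) kit, aligned to mm10 with TopHat and summarized by expectation-maximization, and their methods name FPKM. The deposited signal values, normalized by the authors, were found to be whole reads divided by 1 size factor per library, since all values came out whole within 0.1 read in all 6 libraries. They were treated as normalized counts and not as FPKM. Of 26438 lines, 1 named no gene and was left out, and 40 genes shared a name with another.

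Samples were grouped by genotype from the labels. The main test was limma 3.58.1 (R 4.3.3), with an intensity trend, on log2(normalized count + 0.1) for the 22921 genes with a mean above 0.5, with Benjamini-Hochberg adjustment over all of them. Fold changes are on that scale and understate the change of low genes. Single members were also tested by exact two-sided permutation of 3 against 3 libraries, for which p cannot go below 0.1. FPKM was computed from recovered reads and GENCODE M21 exon lengths, which were found for 99.5% of genes. On the recovered reads, edgeR 4.0.16 (quasi-likelihood) called 2190 genes lower and 2608 higher, against 2091 and 2360 by limma, and DESeq2 1.42.0 and the edgeR likelihood ratio test were further alternatives. Scripts were tested on simulated data.

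The members, the pathway list and the marker lists were chosen with earlier results of these data known. Genes named in the text were the 10 members, pathway genes with an adjusted p under 0.05, the most abundant pathway gene of each role, *Rdh10*, the 3 genes most like the lowest and the highest member, and markers that were most abundant or at 0. Other markers were named where they passed the test. Other pathway genes (*Smad1*, *Smad5*, *Msx2*, *Tbx3*, *Bmp8a* and *Bmp10*) were named as relatives or for their low reads, after their values were seen. The markers *Prrx1*, *Tnnt2*, *Myh6* and *Myh7* were also named after their values were seen. One gene most like *Bmp2* and the summed mesenchyme markers are not reported here. Libraries were pools of different embryos. The smallest library, of 16392777 reads, sets the lowest precision, and the limit of 3 reads covers counting error only.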

Additional observations from a re-analysis of the deposited data

How the results depend on the processing

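*Id4* kept its direction under all 19 alternatives, with log2 fold changes between −1.14 and −0.83, and was called lower in 18 of them. Without an intensity trend in limma, 0 members were called lower and 0 higher (*Id4* adjusted p = 0.0698), where limma called 197 genes lower and 448 higher in all and 2733 and 2982 at an unadjusted p under 0.05. *Smad7* kept its direction and lost its call in 6 of 19. The count of members called higher, 1 by the reported test, was 2 with DESeq2, TMM scaling, a mean above 10 or a pseudocount of 1, 3 with the edgeR quasi-likelihood or likelihood ratio test, 4 with the GC and length trend removed, 0 with the log2 cut-off of 0.85, and 0 to 2 when single libraries were left out. *Bmp2* passed in 5 and *Id1* in 6 of the 19 alternatives, with adjusted p-values of 0.0295 to 0.143 and 0.0202 to 0.310. Leaving out single libraries moved *Bmp5* between −0.034 and 0.29 and *Id3* between −0.18 and 0.0098, so both changed sign once, *Bmp5* without *Rdh10* KO replicate 2 and *Id3* without *Rdh10* KO replicate 3. The cause was not tested.

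Of the other pathway genes, 4 lower and 13 higher became 2 and 4 without an intensity trend, 1 and 3 with the log2 cut-off, and 2 to 4 and 6 to 12 when single libraries were left out. The lowest counts came without wild-type replicates 1 and 3 (2 lower each) and without wild-type replicates 2 (6 higher) and 1 (7 higher). *Acvrl1*, *Smad9*, *Fst*, *Crim1*, *Msx1* and *Tbx2* were called under all 19 alternatives. Over all genes, leaving out single libraries gave 992 to 2068 lower and 1491 to 2139 higher, with 1209, 992 and 1270 lower without wild-type replicates 1, 2 and 3, and 1491 higher without wild-type replicate 2.

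Replicate numbers did not pair the libraries. Deviations of same-numbered libraries correlated at −0.03, −0.03 and −0.07 over 15272 genes, and no library correlated best with its own number. With a replicate block, 0 members were higher (*Smad7* adjusted p = 0.0563), 2 pathway genes were lower and 9 higher (*Gdf6*, *Bmp1*, *Gdf7*, *Acvr1*, *Acvr2a* and *Smurf2* lost their calls, adjusted p 0.0629 to 0.0900), and 1387 genes in all were lower and 1715 higher. With the replicate block and the GC and length trend removed, 2 members were higher. At 47 to 103 reads per library, counting error limits *Bmp2* most among the members.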
